A study of Mus musculus with 8 samples.

Results

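The genes described here encode the translation machinery of the mouse heart: the proteins of the cytosolic and mitochondrial ribosomes and the factors that start, carry on and regulate protein synthesis. They were chosen by name: gene symbols that begin with Rpl or Rps (the Rps6k kinases left out), Mrpl, Mrps, Eif or Eef, without Eif2s3x, Eif2s3y and Eif2ak2. The rule gave 81 genes on 83 probes, and all 81 were among the 7812 rows with enough values to be tested, out of 9607 rows in the table. Of these, 25 were placed with the cytosolic ribosome, 15 with its large and 10 with its small subunit. Another 28 were placed with the mitochondrial ribosome (17 and 11). The other 28 are translation factors (16 for initiation, 5 for elongation and 7 regulators or modifiers). Every member carried its symbol alone on its probe, and 18 further probes that carried several symbols, 1 of them of the family, were not counted as members.

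Whole hearts of C57BL/6 mice, an inbred strain with no engineered allele or treatment named in the labels, were taken from females and males at 8 and 2 months of age. RNA of 6 hearts went into each pool, and the 24 mice gave 4 pools: 8-month females, 8-month males, 2-month females and 2-month males. Each of the 8 two-colour cDNA arrays set the female pool against the male pool of the same age, 4 arrays per age, with the female pool in Cy3 on replicates 1 and 3 and in Cy5 on replicates 2 and 4. All values below are log2 ratios of the female over the male pool, so a positive value is a higher relative level in the female pool. At each age both dye orientations were given equal weight in the mean, and the SD beside it is the spread of the 4 technical arrays, not of animals.

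The cytosolic ribosome makes the proteins encoded in the nucleus, and its protein subunits are produced in matched amounts. Many messenger RNAs for these subunits start with a run of pyrimidines, the 5′ terminal oligopyrimidine tract, through which the growth-regulating kinase mTOR controls their translation. The mitochondrial ribosome is a separate particle, encoded by nuclear genes and assembled in the organelle, where it makes the few respiratory chain subunits that mitochondrial DNA encodes. Initiation factors bring the messenger RNA and the first tRNA to the small subunit, and elongation factors deliver tRNAs and move the ribosome along. In heart muscle, a tissue rich in mitochondria, protein synthesis is known to follow workload, nutrients and hormones.

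Replicates 1 and 2 of 8 months carried a trend along the probe number: their running medians had SDs of 0.51 and 0.823 (log2), against 0.037 to 0.075 on the other 6 arrays. All ratios were also wider there, with interquartile ranges of 1.145 and 1.522 against 0.292 to 0.438, so 8-month values are given from replicates 3 and 4 as well. The labels fitted the sex-linked transcripts: Xist, made from the inactive X chromosome, was above 0 on all 8 arrays (3.45 at 8 months and 2.44 at 2 months), and the Y-linked Kdm5d was below 0 on all 8 (-2.88 and -2.43). Of the 10 measured heart muscle markers, the median was -0.31 at 8 months (-0.12 from replicates 3 and 4) and -0.01 at 2 months; the table holds ratios without levels, so neither the level of a marker nor the amount of heart muscle RNA can be read from it. In whole hearts, fewer cells of a type and less RNA per cell cannot be told apart.

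The cytosolic ribosome genes lay on the female side as a group, by a small amount, and the mitochondrial ribosome genes and the translation factors did not. At 8 months the median of the 25 cytosolic genes was 0.15, a ratio of 1.11, against a median of -0.03 over all tested rows. At 2 months their median was 0.22, a ratio of 1.16, against -0.02 over all rows. The 28 mitochondrial ribosome genes had medians of -0.07 at 8 months and -0.05 at 2 months, and the 28 factors had medians of -0.05 and 0.01. No test of a group median was made, and the values are descriptions of these 2 pairs of pools.

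**Figure D1:**
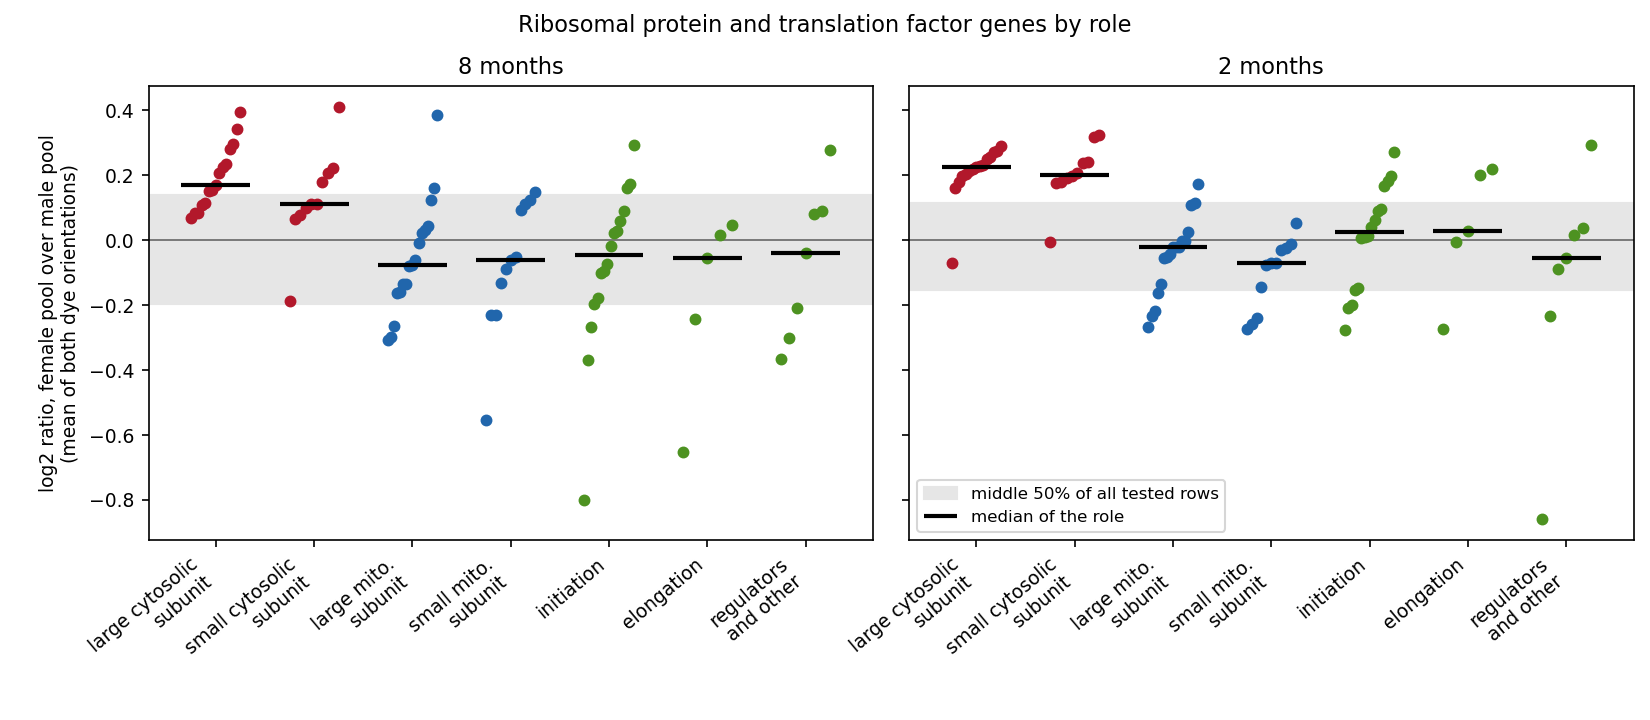
Log2 ratio of the female over the male pool for each of the 81 genes (points), by ribosome subunit or factor role, at 8 months (left) and 2 months (right); bars are medians of a role, and the grey band is the interquartile range of all tested rows. The cytosolic medians lie above 0 at both ages, with medians of 0.17 and 0.11 at 8 months and 0.22 and 0.20 at 2 months for the large and the small subunit, and the mitochondrial medians lie at -0.08 and -0.06 at 8 months and -0.02 and -0.07 at 2 months.

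The same order was seen on single arrays. At 8 months the cytosolic median was 0.43, 0.02, 0.08 and 0.37 on replicates 1 to 4, while the mitochondrial median was 0.25, -0.57, -0.10 and 0.13. At 2 months the cytosolic median was 0.14, 0.36, 0.05 and 0.29, and the mitochondrial median was -0.11, 0.02, -0.14 and 0.04. The cytosolic median was above 0 on all 8 arrays, and on each array it was above the mitochondrial median of the same array. The difference between them averaged 0.29 ± 0.20 at 8 months and 0.26 ± 0.06 at 2 months (SD, n = 4 technical arrays each). On replicate 2 of 8 months the order did not hold for both cytosolic subunits. The large-subunit median there was 0.285, with 11 of 15 genes higher, against 49.5% of all rows. The small-subunit median was -0.76, with 2 of 10 higher, below the mitochondrial median of -0.57. The factor medians were 0.19, -0.66, -0.04 and 0.05 at 8 months and 0.05, 0.06, 0.02 and 0.02 at 2 months, below the cytosolic median on all 8 arrays by 0.34 ± 0.24 at 8 months and 0.17 ± 0.13 at 2 months.

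**Figure D2:**
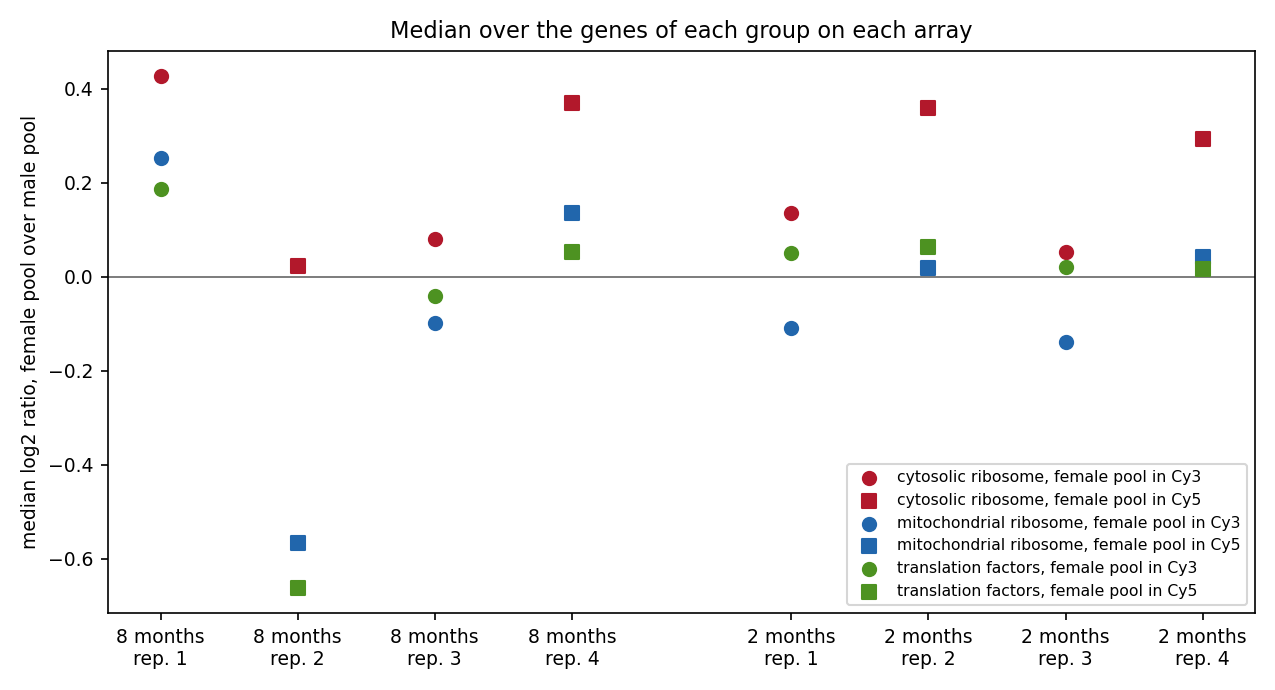
Median log2 ratio of the female over the male pool for the 25 cytosolic ribosome, 28 mitochondrial ribosome and 28 factor genes on each of the 8 arrays (8 months left, 2 months right), with circles for the female pool in Cy3 and squares for Cy5. The cytosolic median is the highest of the 3 on every array, and the widest swings of the other medians, down to -0.57 and -0.66, are on replicate 2 of 8 months.

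Counted gene by gene, 24 of the 25 cytosolic genes were higher in the female pool at 8 months and 23 of 25 at 2 months, where 45.0% and 46.4% of all tested rows were. At both ages 23 of 25 were higher, against 24.4% of all rows, and Rps14 was the only cytosolic gene that was lower at both. Of the 28 mitochondrial genes, 10 were higher at 8 months and 5 at 2 months, and 15 were lower at both ages, where 33.0% of all rows were. The factors divided more evenly, with 12 of 28 higher at 8 months and 17 of 28 at 2 months. From replicates 3 and 4 of 8 months alone, 25 of 25 cytosolic genes were higher (median 0.20), against 48.8% of all rows, as were 21 of 28 mitochondrial genes (median 0.04) and 14 factors (median 0.01).

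Fewer genes had 1 sign on every array. At 2 months 16 of the 25 cytosolic genes were higher on all 4 arrays, against 17.7% of all rows, and none was lower on all 4. At 8 months, where the uneven replicates 1 and 2 have opposite dye orientations, 7 of 25 were higher on all 4 arrays, against 5.79% of all rows, and none was lower on all 4, against 4.85%. On all 8 arrays 5 members were higher, against 1.8% of all rows, and all 5 are cytosolic: Rpl28, Rplp1, Rplp2, Rpl10a-ps2 and Rps24. No member was lower on all 8 arrays, against 1.56% of all rows. Members of the ribosome were measured on the same arrays from the same pools, so their counts are not counts of independent observations.

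No single member passed the test over both ages. In limma's test of the 2 age means (n = 2 pool pairs), adjusted over 7812 rows by Benjamini-Hochberg, 0 of 81 members had an adjusted p below 0.05, against 0.0896% of all rows (7). At an unadjusted p below 0.05 there were 5 members, Eif2ak4, Eif5a, Mrps31, Eif4e and Eif4e3, all lower in the female pool and none of the cytosolic ribosome, against 10.4% of all rows (811) in either direction and 6.4% (500) lower. Fits over the 8 single arrays, whose p-values measure technical spread alone, also called 0 members, with 74 rows called with a dye term. The SE printed with a value over both ages is limma's moderated SE. It draws on the variance of all tested rows and is not the spread between the pool pairs of that gene.

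Among proteins of the large cytosolic subunit, Rpl35a had the highest value over both ages. It was 0.53, 0.66, -0.007 and 0.39 on replicates 1 to 4 at 8 months and 0.08, 0.40, -0.007 and 0.42 at 2 months. Replicate 3 was close to 0 at each age and the other arrays were above it, which gave 0.31 ± 0.13 (SE, n = 2 pool pairs; limma adjusted p = 0.490). Rpl8 was 0.30, 0.65, 0.28 and 0.14 at 8 months and 0.35, 0.17, 0.39 and -0.06 at 2 months, so 7 of 8 arrays were higher in the female pool. Rpl27a was 0.91, -0.35, 0.10 and 0.46 at 8 months and 0.14, 0.35, 0.10 and 0.35 at 2 months. Its range at 8 months shows how far apart replicates 1 and 2 could lie for 1 gene, while its 2-month arrays were all above 0.

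Rplp1 and Rplp2 encode the acidic proteins of the ribosomal stalk, to which elongation factors bind, and their values were even at 2 months. Rplp1 was 0.49, 0.02, 0.17 and 0.22 at 8 months and 0.13, 0.25, 0.21 and 0.20 at 2 months. Rplp2 was 0.21, 0.58, 0.11 and 0.28 at 8 months and 0.16, 0.19, 0.14 and 0.14 at 2 months. Neither gene had an array below 0. Rpl28 was likewise above 0 throughout, at 0.09, 0.28, 0.09 and 0.37 at 8 months and 0.10, 0.36, 0.02 and 0.23 at 2 months. Without Rplp1 and Rplp2, which a stricter reading of the name rule would leave out, the cytosolic median was 0.15 at 8 months and 0.22 at 2 months.

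Relatives of the classical subunits and some classical ones were uneven between arrays. Rpl21 was 0.72, -0.73, -0.06 and 0.50 at 8 months and 0.002, 0.51, -0.06 and 0.46 at 2 months. Rpl7l1, a protein related to Rpl7, was -0.79, 0.81, 0.23 and 0.07 at 8 months and -0.10, -0.18, 0.27 and -0.27 at 2 months. Its 2-month mean was the only one below 0 among the genes placed with the large subunit. Rpl39l, a copy of Rpl39 known mainly from the testis, was 1.07, -1.44, 0.04 and 0.60 at 8 months and -0.04, 0.51, -0.11 and 0.64 at 2 months, so its sign changed between arrays at each age. Rpl7 itself was -0.21, 0.18, -0.04 and 0.39 at 8 months and 0.18, 0.51, 0.02 and 0.45 at 2 months. cDNA probes can also bind near-identical copies, so the values of Rpl10a-ps2 and Rps19-ps3, pseudogene names in the annotation, and of other members with processed copies may include RNA of the parent gene or its relatives. Without these 2 genes, Rpl7l1 and Rpl39l the cytosolic median was 0.17 at 8 months and 0.22 at 2 months.

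**Figure D3:**
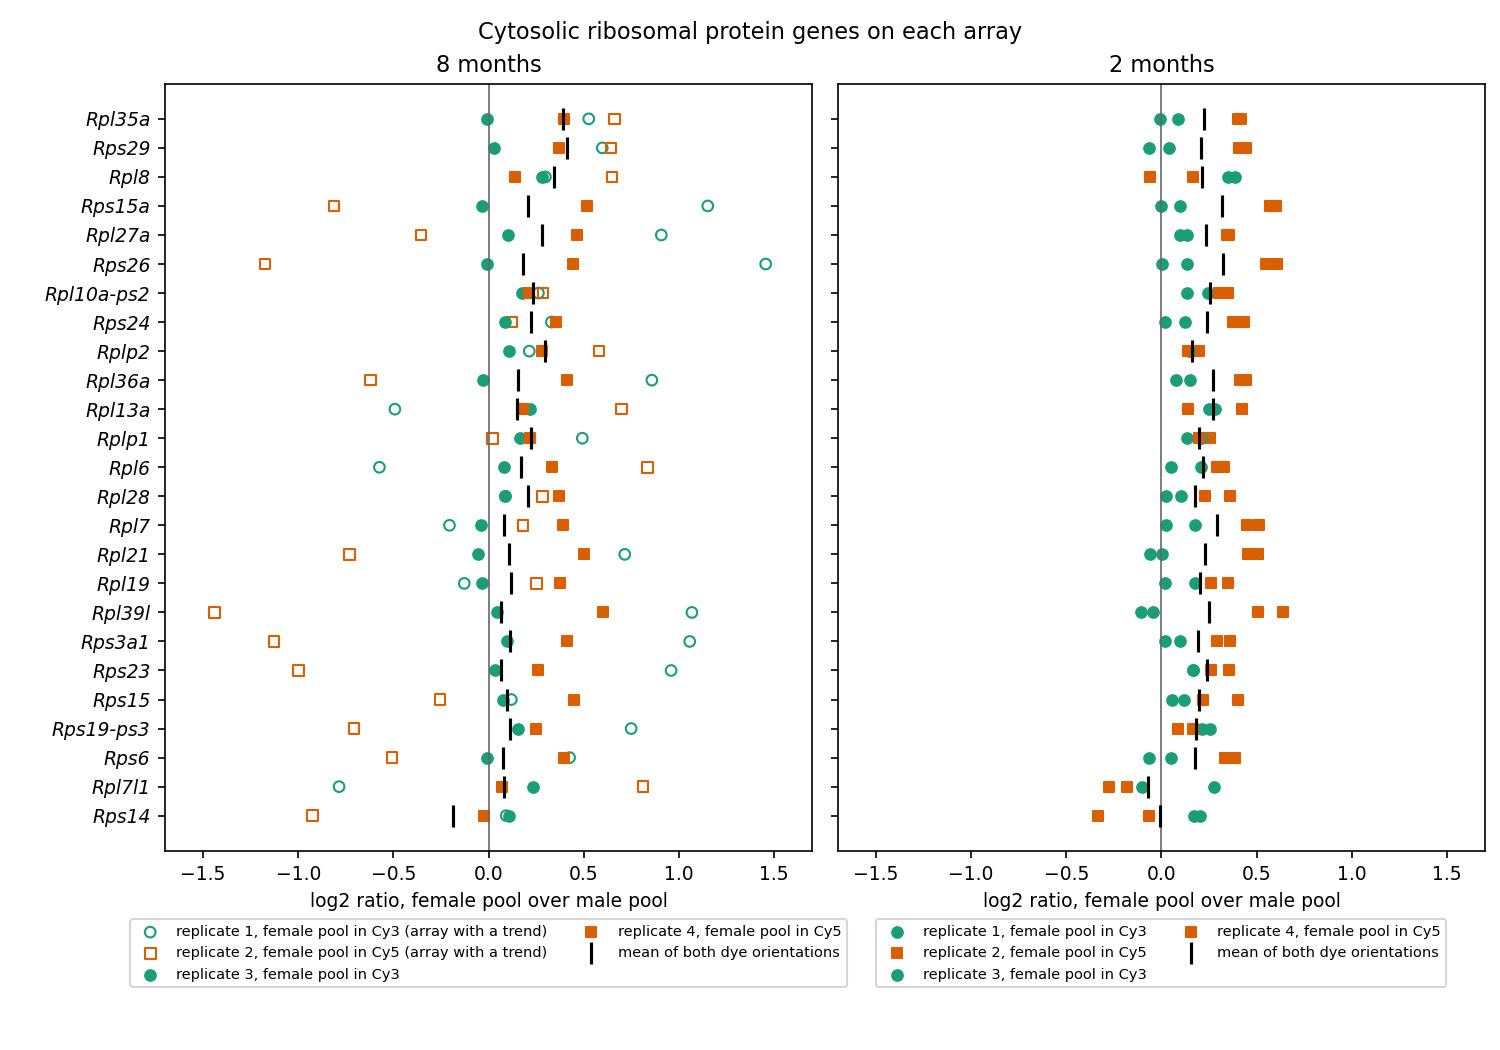
Log2 ratio of the female over the male pool for the 25 cytosolic ribosome genes on each array (points), at 8 months (left) and 2 months (right), with the mean of the dye orientations as a bar. At 8 months the points of replicates 1 and 2 spread from -1.44 to 1.46, and at 2 months all points lie between -0.33 and 0.64.

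In the small cytosolic subunit the highest values belonged to Rps29, Rps15a and Rps26. Rps29 was 0.60, 0.64, 0.03 and 0.37 at 8 months and 0.04, 0.41, -0.07 and 0.44 at 2 months. Over both ages it was 0.31 ± 0.13 (SE, n = 2 pool pairs; limma adjusted p = 0.492). Rps26 was 1.46, -1.18, -0.009 and 0.44 at 8 months and 0.14, 0.61, 0.005 and 0.55 at 2 months, where it was the highest small-subunit gene at 0.32 ± 0.30 (SD, n = 4 arrays). Its 2-month arrays were all above 0 and split by dye, with the arrays that had the female pool in Cy5 the higher ones. Rps6, the protein that S6 kinases phosphorylate, was 0.43, -0.51, -0.008 and 0.39 at 8 months and 0.05, 0.39, -0.06 and 0.33 at 2 months, and its 2 probes had the same sign at each age.

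Rps14, a protein of the small subunit's platform, differed from the others in sign. It was 0.09, -0.93, 0.11 and -0.02 at 8 months and 0.17, -0.07, 0.20 and -0.33 at 2 months. Arrays of each age lay on both sides of 0, and the value over both ages was -0.10 ± 0.13 (SE, n = 2 pool pairs; limma adjusted p = 0.861). From replicates 3 and 4 of 8 months it was 0.04. Fau, which encodes a small-subunit protein but falls outside the name rule, was -0.09, 0.75, 0.01 and 0.30 at 8 months and 0.28, 0.37, 0.12 and 0.30 at 2 months, close to the members of its subunit.

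The start sites of some members are printed because the pyrimidine tract is what many cytosolic ribosome genes share. Each is a window of 20 bases before and 10 bases after an annotated start, from RefSeq on GRCm38.p6, plus strand. The longest run of C or T of at least 8 bases is in capitals. A run may lie anywhere in the window. In Rpl19, Mrpl1 and Eif4e it lies wholly before the annotated start, so it is not a tract with which that transcript begins. In Eif2ak4 the first base from the annotated start on is an A and the run follows it, so that transcript does not begin with the run either. Where a gene had several annotated starts, the one with the longest run was used, for members and all other genes alike. The first 5 are the cytosolic ribosome genes with the longest runs, with genes of a single chromosome left out of the choice. They are not typical of the group, since 8 of the 17 cytosolic genes with a promoter had no such run. The next 2 are mitochondrial and the last 2 factors, and Mrps31 has no such run.
Rpl27a, chr7:109519175-109519204: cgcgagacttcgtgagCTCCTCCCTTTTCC
Rpl35a, chr16:33056462-33056491: gcgcggcggggcttgCCTTCCTCTTTCCgc
Rpl19, chr11:98026904-98026933: gggcttgggCTCTCCCCTTCgcagataatg
Rpl28, chr7:4792945-4792974: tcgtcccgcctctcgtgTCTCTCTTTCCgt
Rplp2, chr7:141447631-141447660: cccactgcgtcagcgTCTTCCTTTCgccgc
Mrps31, chr8:22411320-22411349: cctaccggaatccaaaaggagcggaacagt
Mrpl1, chr5:96210095-96210124: CCTTTTTCgcatttccgtgcagttgaaacc
Eif2ak4, chr2:118389092-118389121: cacccttcgtccttccaaccaTTCTTCCCC
Eif4e, chr3:138527248-138527277: tcctctcgCCCCCCCTTCaggagcggttgt

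A run of this length was in the window of 9 of the 17 cytosolic genes with a promoter in the table (52.9%), of 4 of 23 mitochondrial genes (17.4%), of 7 of 21 factor genes (33.3%) and of 14.5% of all 27025 genes. Runs before and after the annotated start were both counted, so these shares are not shares of messenger RNAs that begin with a pyrimidine tract. The 9 cytosolic genes with a run had median ratios of 0.21 at 8 months and 0.22 at 2 months, and the 8 without one had 0.10 and 0.23, so at 2 months the medians were nearly equal. Over the whole 300-base promoter, on either strand, the letters CCGGAAG, a form of the ETS factor motif, were found in 47.1% of cytosolic, 34.8% of mitochondrial and 38.1% of factor genes and in 9.93% of all genes. AAGATGGCG, a form of the YY1 motif, was in 17.6%, 8.7% and 4.76%, against 1.64% of all genes. TATAAA, the TATA box, was in 5.88%, 0 and 9.52%, against 15.7%. These letters describe the windows and do not show binding.

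The dye orientations gave different sizes for the cytosolic genes. At 8 months their median was 0.26 with the female pool in Cy3 and 0.12 with it in Cy5. At 2 months it was 0.10 in Cy3 and 0.32 in Cy5. The 8-month order came from the uneven replicates 1 and 2, at 0.43 in Cy3 and 0.02 in Cy5. On replicates 3 and 4 of 8 months the median was 0.08 in Cy3 and 0.37 in Cy5. There the Cy5 orientation was the higher one, as at 2 months. The mitochondrial median at 2 months was -0.13 in Cy3 and 0.04 in Cy5, and the factor median was 0.01 and 0.02. The mean of the orientations, used throughout, gives each equal weight.

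**Figure D4:**
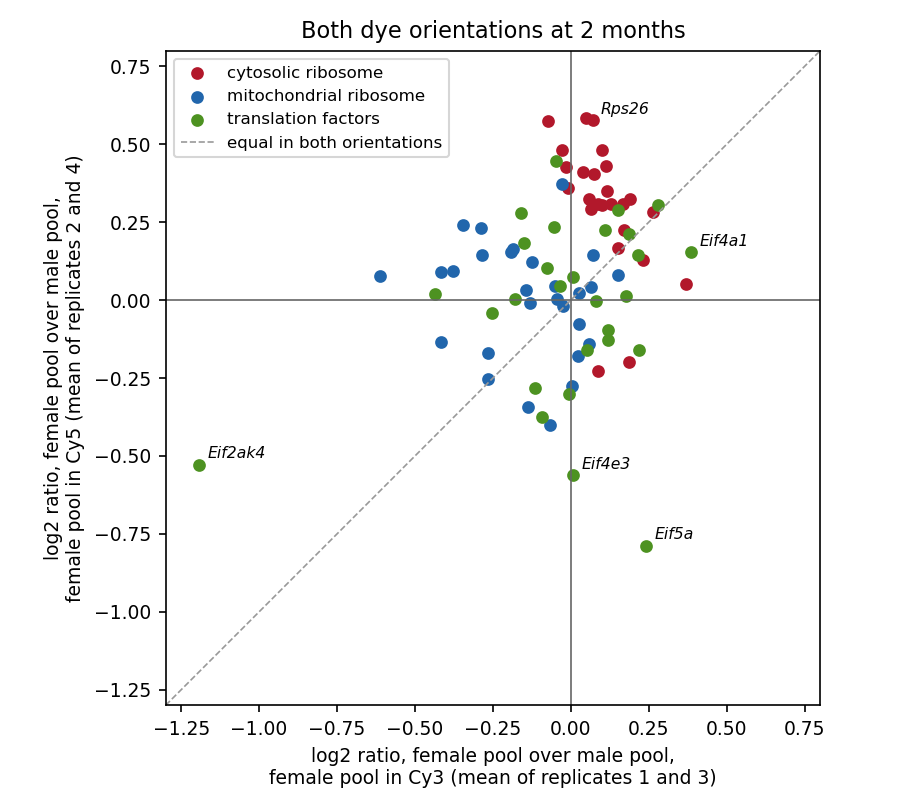
Log2 ratio of the female over the male pool with the female pool in Cy3 (horizontal) and in Cy5 (vertical) for each of the 81 genes at 2 months; the dashed line marks equal values, and colours mark the cytosolic ribosome, the mitochondrial ribosome and the factors. The cytosolic genes lie mostly above the diagonal, with medians of 0.32 in Cy5 and 0.10 in Cy3, and Eif2ak4 is low in both orientations.

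In the mitochondrial ribosome the lowest gene over both ages was Mrps31, a small-subunit protein. It was -0.84, -1.21, -0.23 and 0.07 at 8 months and -0.42, -0.18, -0.41 and -0.09 at 2 months. It was lower in the female pool on 7 of 8 arrays, at -0.41 ± 0.14 over both ages (SE, n = 2 pool pairs; limma adjusted p = 0.408). From replicates 3 and 4 of 8 months it was -0.08, so most of its 8-month value came from the uneven arrays, and with those replicates alone the value over both ages was -0.18. Without replicate 2 of 8 months it was -0.25. Mrpl1, a large-subunit protein, was -0.56, -0.66, -0.19 and 0.37 at 8 months and -0.33, -0.02, -0.90 and 0.17 at 2 months. Mrps18a was 0.53, -1.47, -0.06 and 0.08 at 8 months and -0.15, -0.25, -0.13 and -0.43 at 2 months, below 0 on all 2-month arrays but on both sides of 0 at 8 months.

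Other mitochondrial genes had means above 0 at 8 months, and of the next 3 only Mrpl11 had one at 2 months. Mrpl13 was 0.56, 0.73, 0.004 and 0.25 at 8 months and -0.17, 0.13, -0.22 and 0.17 at 2 months, so all its 8-month arrays were above 0 and its 2-month arrays were divided by dye. Mrpl11 was 0.69, -0.16, -0.07 and 0.18 at 8 months and 0.12, 0.07, 0.02 and 0.22 at 2 months. Mrps12 was 0.42, 0.05, 0.06 and 0.07 at 8 months and -0.02, -0.15, 0.07 and -0.21 at 2 months. At 2 months 5 of 28 mitochondrial genes were lower on all 4 arrays, against 18.1% of all rows, and 3 were higher on all 4, against 17.7%.

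Factors of the initiation step had a median of -0.05 at 8 months and 0.03 at 2 months. Eif4e, which binds the cap of the messenger RNA, was -1.97, -1.02, -0.26 and 0.05 at 8 months and -0.41, -0.09, -0.46 and 0.13 at 2 months. Replicate 4 was the only array above 0 at each age, and the value over both ages was -0.50 ± 0.17 (SE, n = 2 pool pairs; limma adjusted p = 0.430). With 8 months taken from replicates 3 and 4 it was -0.16, and without replicate 1 of 8 months it was -0.29. Its relative Eif4e3 was 0.62, -1.58, -0.14 and -0.37 at 8 months and -0.05, -0.47, 0.07 and -0.66 at 2 months. Eif4ebp1, which encodes a repressor that holds Eif4e when mTOR is inactive, was 0.63, -0.36, -0.06 and 0.16 at 8 months and 0.29, 0.28, 0.27 and 0.33 at 2 months. Its 2-month arrays were close together, at 0.29 ± 0.02 (SD, n = 4 arrays), while its 8-month arrays lay on both sides of 0.

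Eif4a1, the helicase that unwinds the leader of the messenger RNA, was 0.85, -0.66, 0.34 and 0.17 at 8 months and 0.24, 0.19, 0.53 and 0.12 at 2 months. Eif1a, which helps the ribosome scan for the start codon, was -1.14, 1.60, 0.13 and 0.58 at 8 months and 0.20, 0.19, 0.17 and 0.23 at 2 months. Both were above 0 on all 2-month arrays, and each had 1 of the uneven 8-month arrays far below 0. The 6 measured subunits of initiation factor 3, the scaffold on the small subunit, had a median of -0.05 at 8 months with 2 of 6 higher, and 0.07 at 2 months with 6 of 6 higher.

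Elongation factors had no common direction. Eef1a1, which delivers tRNAs to the ribosome, was 0.59, -0.40, -0.06 and -0.34 at 8 months and 0.21, 0.39, 0.09 and 0.19 at 2 months. Eef2, which moves the ribosome by a codon, was 0.39, -1.24, 0.14 and -0.27 at 8 months and 0.20, -0.14, 0.23 and -0.17 at 2 months. Its sign was positive with the female pool in Cy3 and negative with it in Cy5 at each age. Eif5a, the hypusine-carrying factor that helps at difficult codons, was -1.48, -0.90, 0.18 and -0.40 at 8 months and 0.20, -0.68, 0.28 and -0.90 at 2 months. Its 2-month arrays were positive in Cy3 and negative in Cy5, and the value over both ages was -0.46 ± 0.15 (SE, n = 2 pool pairs; limma adjusted p = 0.385). With 8 months taken from replicates 3 and 4 it was -0.19, and without replicate 1 of 8 months it was -0.26. Eif5a2 had 3 values at 8 months, 0.46, -1.07 and 0.22 on replicates 1, 2 and 4, and it is the only member with a missing value.

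The member farthest from 0 at 2 months and over both ages was Eif2ak4, which encodes GCN2, the kinase that senses uncharged tRNA and phosphorylates initiation factor 2. At 8 months it was 0.35, -1.38, -0.03 and -0.15, on both sides of 0, with a mean of -0.30 ± 0.75 (SD, n = 4 arrays), or -0.09 from replicates 3 and 4. At 2 months it was -1.26, -0.69, -1.13 and -0.36, all below 0, with a mean of -0.86 ± 0.41. Over both ages it was -0.58 ± 0.17 (SE, n = 2 pool pairs; limma adjusted p = 0.365), lower on 7 of 8 arrays. Eif2ak3, which encodes the related kinase PERK of the endoplasmic reticulum, was -0.59, 0.52, -0.06 and -0.03 at 8 months and 0.10, 0.19, 0.06 and -0.20 at 2 months. Eef2k, the kinase that inactivates Eef2, was -1.08, 0.08, -0.26 and -0.20 at 8 months and 0.07, -0.06, 0.04 and -0.26 at 2 months.

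**Figure D5:**
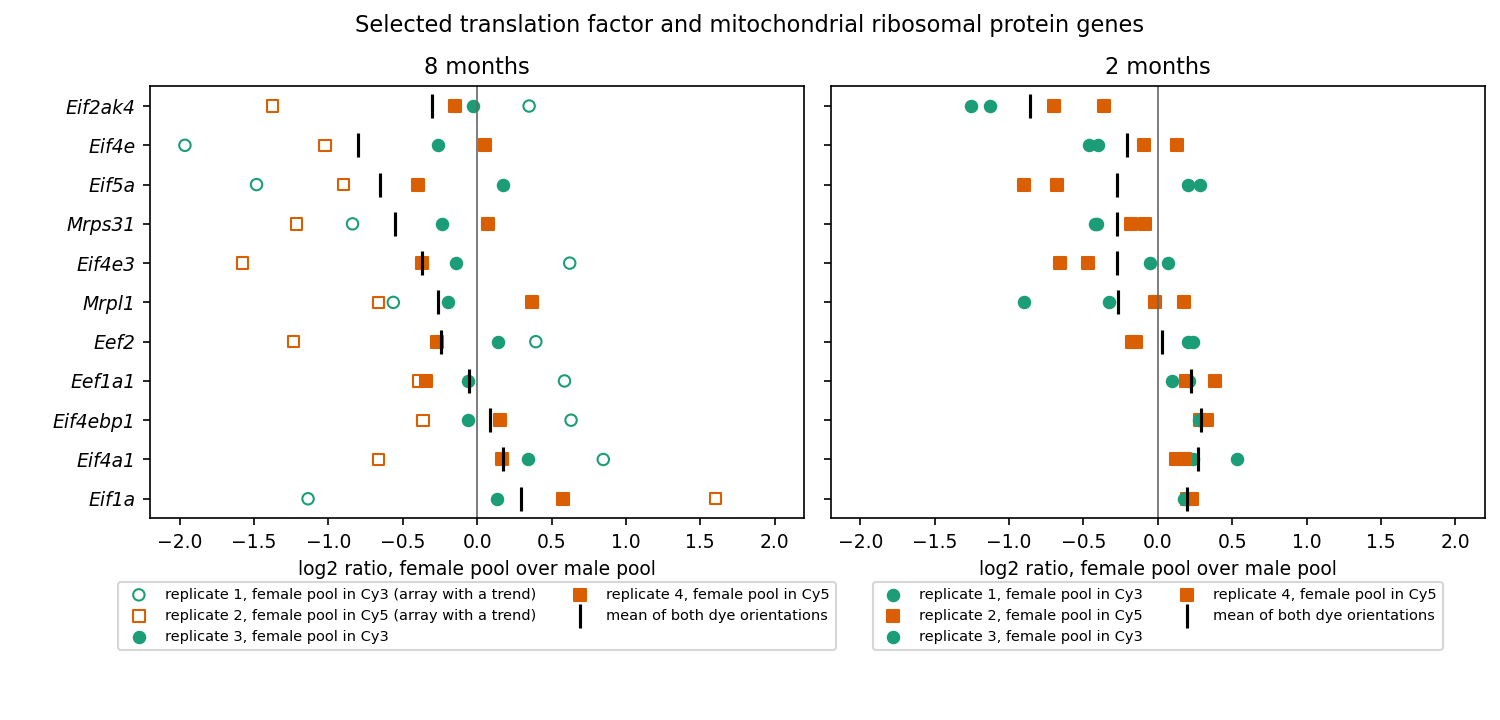
Log2 ratio of the female over the male pool for selected factor and mitochondrial ribosome genes on each array (points), at 8 months (left) and 2 months (right), with the mean of the dye orientations as a bar. Eif2ak4 lies below 0 on all 4 arrays at 2 months, at -1.26 to -0.36, and Eif4ebp1 lies between 0.27 and 0.33 there.

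A size rule asked for a ratio of 1.5-fold or more and no change of sign between the arrays of an age. At 8 months 0 of 81 members met it, against 2.98% of all rows. At 2 months 1 member did, Eif2ak4, against 4.17% of all rows. At 1.2-fold there were 5 at 8 months, Rps29, Mrpl13, Rpl8, Rplp2 and Eef1akmt2, all higher in the female pool, against 4.71% of all rows. At 2 months there were 6 higher ones, Rps26, Eif4ebp1, Rpl7, Rpl13a, Rpl36a and Eif4a1, against 8.09% of all rows, and 2 lower ones, Eif2ak4 and Mrps31, against 8.83%. The cytosolic shift was thus made of many small differences, of which none reached 1.5-fold at either age by this rule.

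The ages were compared by the 8-month minus the 2-month ratio, with no test since each age has 1 pair of pools. No member differed by 1.5-fold without overlap of the arrays of the ages, against 3.29% of all rows, and no member was free of overlap at any size, against 5.93%. The median difference was -0.08 for the cytosolic genes, 0.01 for the mitochondrial genes and -0.08 for the factors. The widest difference by size was that of Eif4e, -0.59, with arrays of the ages that overlapped, and from replicates 3 and 4 of 8 months its 8-month mean was -0.11, against -0.21 at 2 months. Eif2ak4 had a difference of 0.56, with replicate 2 of 8 months below all its 2-month arrays. From replicates 3 and 4 of 8 months its difference was 0.77 and its arrays did not overlap.

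Genes that work beside the members had medians nearer 0 than the cytosolic ribosome for most lists, and no gene of these lists was called; the difference between lists was not tested. The 18 measured ribosome biogenesis genes had medians of 0.02 at 8 months and 0.02 at 2 months, with 11 and 9 higher. The 15 aminoacyl-tRNA synthetases had medians of -0.02 and -0.06, with 7 and 5 higher. The 7 termination, recycling and mRNA-binding factors had medians of -0.09 and -0.11, with 3 and 0 higher. Of 5 mitochondrial translation and transcription factors, 3 were higher at 8 months (median 0.07) and 0 at 2 months (median -0.15). Gfm1, the mitochondrial elongation factor G, was -0.27, 0.86, -0.08 and -0.18 at 8 months and -0.28, -0.27, -0.11 and -0.27 at 2 months, below 0 on every 2-month array.

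In signalling to the ribosome, the 14 measured genes around mTOR and the S6 kinases had medians of -0.20 at 8 months, with 3 higher, and 0.00 at 2 months, with 7 higher. Mknk1, a kinase that phosphorylates Eif4e, was -0.27, -0.41, 0.18 and -0.82 at 8 months and -0.04, -0.49, -0.02 and -0.52 at 2 months. Pik3ca was below 0 on all 8 arrays, with means of -0.21 at 8 months and -0.42 at 2 months. Rps6ka6 was above 0 on all 8 arrays, with means of 0.25 and 0.24. The 8 genes of the integrated stress response, Eif2ak4 and Eif2ak3 among them, had medians of -0.40 at 8 months (-0.07 from replicates 3 and 4) and -0.04 at 2 months. Atf4, whose translation rises when initiation factor 2 is phosphorylated, was -0.07, 0.76, 0.03 and -0.03 at 8 months and 0.20, 0.26, 0.31 and 0.27 at 2 months. Asns, a target of Atf4, was -0.18, 1.28, 0.07 and 0.15 at 8 months and 0.15, 0.31, 0.26 and 0.32 at 2 months. Ppp1r15a, which encodes a phosphatase subunit that reverses that phosphorylation, was 0.29, -2.31, 0.55 and -0.65 at 8 months and -0.04, -1.26, 0.06 and -2.01 at 2 months. Vegfa, a blood vessel growth factor, was -0.39, -1.25, 0.14 and -0.50 at 8 months and -0.14, -0.60, 0.02 and -0.54 at 2 months. Chac1 was -0.21, -0.94, -0.46 and -0.83 at 8 months and 0.20, -0.008, -0.18 and 0.08 at 2 months. It was the only gene of the list past the 1.5-fold rule at 8 months, lower in the female pool. The list as a whole had no common direction at 2 months, with 4 of 8 higher and 4 lower.

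Markers of other cells differed between the pools at 2 months, and some of them also at 8 months. The 13 measured thymocyte and lymphocyte markers had array medians of -0.15 to 0.28 at 8 months, with 1 gene higher by the 1.5-fold rule, and of 1.84 to 2.88 at 2 months, with 10 higher and 1 lower by that rule. The B cell markers Cd79a, Cd79b and Ms4a1 were the 3 with values below 0 at 2 months, at -0.60, -0.22 and -0.32. The 6 adipocyte and brown fat markers had a median of -0.04 at 8 months and 1.75 at 2 months, and the 10 proliferation markers -0.32 and 0.33. Rag1, which rearranges antigen receptor genes in thymocytes, was 1.15 at 8 months and 4.48 at 2 months, and Ucp1 of brown fat was 0.34 and 2.99. At 8 months, where the medians of the thymocyte and fat markers were 0.11 and -0.04, the cytosolic ribosome median was 0.15 (0.20 from replicates 3 and 4, where those marker medians were 0.28 and 0.07), against 0.22 at 2 months. The share of these cells in the cytosolic ribosome values was not tested, and ratios without levels cannot give it. The 3 erythroid markers had medians of 0.71 at 8 months and 0.18 at 2 months, the 4 lung markers 0.37 and 0.87, the 8 endothelial markers -0.40 and -0.32, the 9 macrophage markers 0.15 and -0.46, and the 6 fibroblast markers 0.03 and -0.15. At 8 months 3 of 3 erythroid, 3 of 4 lung and 0 of 8 endothelial markers were higher, against 45.0% of all rows. Sftpc of lung was 3.12 at 8 months (3.89 from replicates 3 and 4) and 1.76 at 2 months. Slc4a1 of red cells was 0.71 and -0.33. The share of these cells in the ribosome values was not tested either.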

How the data were processed

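The deposited table holds 1 log10 ratio of Cy5 over Cy3 per probe and array, made by the authors with Feature Extraction 7.1.1, per the labels, with any later normalization not given in the sources used here. Ratios were turned into log2 female over male by the dye labels, and an exact 0 (6.38 to 13.9% of values per array, 590 rows on all arrays) was taken as missing. Probe names came from the platform annotation with RefSeq updates (GRCm38.p6 for the printed windows): 6671 had 1 symbol, 400 several and 2536 none. Probes of 1 symbol were averaged. Rows needed values on at least 3 arrays per age in both dye orientations. Dye orientations were averaged within each age, whose 4 technical arrays count as 1 replicate. limma 3.58.1 in R 4.3.3 tested the 2 age means over all rows (two-sided, Benjamini-Hochberg), with p-values that rest on 2 pairs of pools. Its SEs are moderated with a variance prior shared by all rows. The fit was tested on simulated data. The table has no intensities. The number of arrays limits the technical precision alone, and the 2 pairs of pools limit what can be said of the sexes. Tables and figures were made with Python 3.11.15, pandas 2.3.3 and matplotlib 3.10.9. Members and lists were chosen with earlier results of these data known. Genes were named by rule: those past a threshold, the 2 highest and 2 lowest of each role over both ages and the extremes at each age, a fixed set of well-known factors, and up to 3 per pathway list. Rpl28, Rplp1, Rplp2, Rpl27a, Rpl21, Mrpl11, Eif2ak3, Atf4, Asns, Chac1 and single cell markers are named or detailed partly outside this rule, after their values were seen. Rpl3, Rpl3l, Rplp0, Rpsa, Eef1a2, Eif4g1 and Eif2s1 had no row under 1 symbol and are not analysed here. Alternatives covered the 8-month arrays used, the trend along the probe number, centring, scaling, missing values, zeros, limits, probes, dye, replicate block, thresholds and left-out arrays. Probes with several symbols, the stricter reading of the name rule and the omission of paralogues were added after seeing the data.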

Additional observations from a re-analysis of the deposited data

Results flagged for a closer look

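Of 76 groups of 4 arrays of a named member at 1 age, 4 had an array far from the other 3, where chance flags about 1 in 20 groups if all arrays have equal spread. All 4 were at 8 months, on replicates 1 and 2, the arrays with a trend along the probe number. Ratios were also wider on those arrays, and groups share arrays, so the chance share does not apply to the 8-month groups. Eef1akmt2, a methyltransferase of elongation factor 1A, was 0.75 on replicate 2 and 0.07 to 0.18 on the others. Eef1g, a subunit of elongation factor 1, was -0.21 on replicate 1 and 0.11 to 0.16 on the others. Mrps12, of the small mitochondrial subunit, was 0.42 on replicate 1 and 0.05 to 0.07 on the others. Rps14, of the small cytosolic subunit, was -0.93 on replicate 2 and -0.02 to 0.11 on the others. The part of the trend in these values was not tested gene by gene.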

How the results depend on the processing

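No member was called over both ages under any alternative, leaving out each array included. The values of the 5 members with an unadjusted p below 0.05 in limma's test kept direction and stayed uncalled in 90 of 90 refits. These 5 were picked by p in the same data, and several settings return the same value, so the count is no measure of robustness. With 8 months from replicates 3 and 4, Eif4e went from -0.50 to -0.16 and Eif5a from -0.46 to -0.19. Medians near 0 changed sign under some settings: the mitochondrial median at 8 months was 0.04 from replicates 3 and 4, 0.12 without replicate 2 and 0.01 without replicate 3; the factor median was 0.01 from replicates 3 and 4 or with arrays scaled and 0.04 without replicate 2 at 8 months, and -0.0096 without replicate 2 at 2 months. The cytosolic median stayed above 0 in all of them. Replicate numbers share only the dye orientation, and with the replicate number as a block over single arrays 69 rows and 0 members were called. The cytosolic median at 8 months was 0.14 to 0.24 under the alternatives and 0.08 to 0.29 without 1 array; at 2 months it was 0.21 to 0.36, the highest with arrays scaled to 1 spread (0.36), and 0.21 to 0.24 without 1 array. The mitochondrial median at 8 months was -0.08 to 0.04, and -0.31 to 0.12 without 1 array; at 2 months -0.08 to -0.04, and -0.06 to -0.04. The factor median at 8 months was -0.06 to 0.01, and -0.18 to 0.04 without 1 array; at 2 months it was 0.0489 with the trend removed and -0.0096 to 0.0448 without 1 array. The size rule gave 0 to 3 members at 8 months without 1 array (Eif1a without replicate 1; Eif5a without replicate 3; Eif4e, Mrpl23 and Mrps31 without replicate 4) and 5 at 1.2-fold; at 2 months it gave 8 at 1.2-fold and 0 at 2-fold. For the age difference it gave 1, Eif2ak4, from replicates 3 and 4 of 8 months or with the trend removed, and 0 to 1 without 1 array (Eif2ak4 without replicate 2 of 8 months, Mrpl23 without replicate 4). Causes were not tested. Of 523 member values at 1 age, 6 moved by over 1 SD, all with arrays scaled, and 50 changed sign, 37 of them at 8 months (Eif2ak4 there was 0.0056 without replicate 2).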
